A study of Homo sapiens with 9 samples.

Results

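Accessible chromatin next to the centromeres was examined in VCaP cells, a human prostate cancer line, and in VCaP16, a derivative line resistant to enzalutamide. Enzalutamide is a drug that blocks the androgen receptor. The assay was ATAC-seq: the transposase Tn5 cuts accessible DNA and leaves sequencing adapters there, and a peak caller lists the places with an excess of such cuts. The 9 libraries formed 3 groups of 3, all labelled as wild type: VCaP_DMSO (VCaP with the solvent only), VCaP_ENZ (VCaP with 10 µM enzalutamide for 96 h) and VCaP16 (the resistant line in 16 µM enzalutamide). VCaP16 is 1 derived line and was always in the drug, so line, dose and length of exposure cannot be told apart. The labels do not say whether replicates came from separate cultures, so p-values measure only the spread between these libraries. Pericentromeric regions were chosen by position: all peaks of the 9 lists were merged where they shared at least 1 bp, and a merged region was taken if its midpoint fell into 1 of 13 windows beside the centromeres of chromosomes 1, 2, 4, 7, 9, 10, 16, 19, 21 and 22. The windows were proposed with the peaks' scores and the calls of these libraries in view. They held 1169 of 94773 merged regions (1.23%) on 83.7 Mb of hg19, or 14.0 regions per Mb.

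Pericentromeric DNA lies beside the satellite arrays on which the kinetochore forms. It is largely packed as constitutive heterochromatin, marked by methylation of histone H3 at lysine 9 and bound by HP1 proteins, and it is rich in satellite repeats and in segmental duplications, blocks of sequence present in several near-identical copies. A short read from such a block can match several places equally well, and the hg19 assembly carries long unsequenced gaps at centromeres. Where a given region lies with respect to repeats, duplications or genes was not examined, since no hg19 sequence or annotation was used here, and for the same reason the cell type could not be checked against marker genes. The lists gave each peak's position and a score, read here as −log10 of the peak's p-value (or of its q-value). They held no read counts, so the depth of the libraries is unknown. List lengths ran from 53646 to 68921 peaks, and VCaP16 replicate 3 was the longest.

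A small number of pericentromeric regions held some of the highest scores in every library. Because depth raises scores, peaks were ranked within their own list, and a place is given either as a position from the top or as a percentage from the top. The peak over chr1:121484079-121485429 stood at place 2 in all 9 lists, with scores of 3077, 2888 and 2772 in VCaP_DMSO, 2649, 3020 and 2426 in VCaP_ENZ and 2141, 2327 and 2533 in VCaP16. It ended at the edge of a long stretch without any peak. Next came chr7:61968622-61969875, at places 3 to 6 with scores from 723 to 1260, and chr19:27731918-27733643, at places 5 to 6 with scores from 751 to 1154. For comparison, the median score of all peaks in a library lay between 11.5 and 14.0. Below these 3, the region chr21:9826865-9827552 scored 166 to 345 at places 17 to 80, and chr9:66493374-66494801 scored 190 to 286 at places 25 to 61.

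The remainder of the 10 best-placed regions lay on chromosomes 1, 7, 10 and 19. On chromosome 7, chr7:63767119-63768237 occupied places 44 to 73, and on chromosome 1, chr1:144931423-144933169 and chr1:143913159-143914276 occupied places 42 to 111 and 39 to 120. The second chromosome 19 region, chr19:27737231-27738936, began a few kb beyond the top one and stood at places 70 to 167. The widest spread among the 10 was that of chr10:42379433-42380518, at places 34 to 341. Its scores were 209, 209 and 236 in VCaP_DMSO, 167, 191 and 143 in VCaP_ENZ and 100, 121 and 145 in VCaP16. Its VCaP16 places, from 0.387% to 0.589%, were all below its VCaP places, from 0.0632% to 0.242%.

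High scores were spread over most windows. Regions with a median place in the best 1% numbered 28 and occurred in 11 of the 13 windows, the exceptions being chromosome 16 at 46 to 47.5 Mb and chromosome 22. The best-placed regions there were chr16:46722308-46724223, with scores of 32.0 to 70.7, and chr22:18883684-18884108, with scores of 69.3 to 117.5. Of all peaks in a library, 1.22% on average lay inside the windows, but of the best 0.1% of peaks 10.5% did (8.77% to 15.8% over the libraries, or 5 to 9 peaks). The share was 4.84% for places between 0.1% and 1% and 2.22% between 1% and 5%, and it lay between 1.02% and 1.57% in every lower class. These shares describe how the windows were chosen and were not tested. Between the groups of libraries, the share of the best 1% of peaks inside the windows averaged 5.41% ± 0.495 for VCaP_DMSO, 5.65% ± 0.394 for VCaP_ENZ and 5.13% ± 0.411 for VCaP16 (SD, n = 3), which did not differ beyond the spread (exact permutation test over 280 arrangements, two-sided, p = 0.35).

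**Figure D1:**
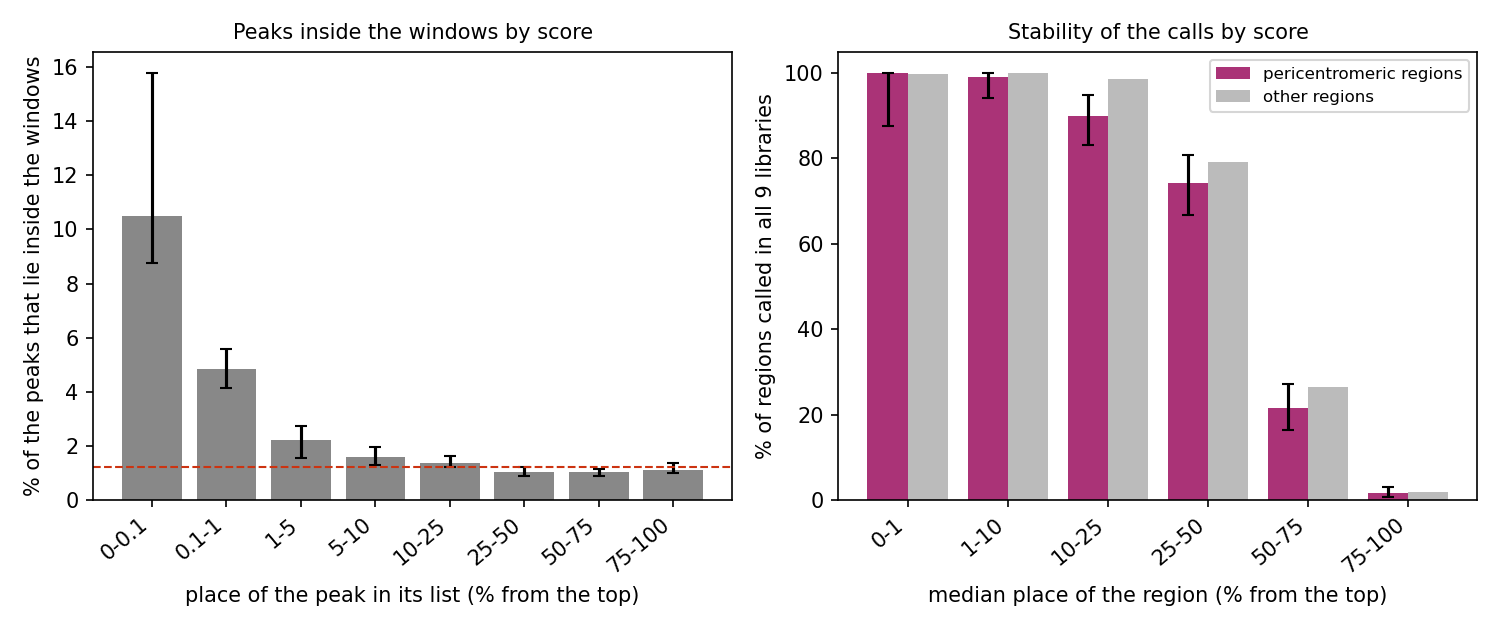
Left, mean percentage of peaks that lie inside the 13 pericentromeric windows (y axis) by the place of the peak in its own list (x axis, % from the top), with bars from the lowest to the highest of 9 libraries and a dashed line at the 1.22% of all peaks. Right, percentage of regions called in all 9 libraries (y axis) by the median place of the region (x axis), for pericentromeric regions with 95% exact binomial intervals and for all other regions. The median place was taken over the libraries that called the region. The windows hold 10.5% of the best 0.1% of peaks, and at places from 10% to 25% 90.0% of pericentromeric and 98.7% of other regions were called in all 9 libraries.

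Peak width was compared as a readout other than score and calls, although it goes with score: outside the windows the median width was 941 bp in the best 0.1% of places and 263 bp in the lowest 25%. The median peak inside the windows was 459 bp wide against 424 bp outside, a difference of 34.9 bp ± 14.3 (SD over 9 libraries), and it was wider in 9 of 9 libraries. Peaks inside the windows also had better places, with a median between 39.6% and 46.2% over the libraries against 50.0% to 50.1% outside, and the windows were proposed with scores in view, so that overall difference is given without a test. Within classes of place the direction varied, and the mean difference was negative in 5 of 8 classes. In the best 0.1% of places the pericentromeric peaks were wider by 278 bp, at 1219 bp against 941 bp, in 9 of 9 libraries (exact sign-flip test over libraries, two-sided, p = 0.00391, the smallest the design allows, and adjusted p = 0.0117 over 9 tests), although only 5 to 9 peaks a library stood behind that value and places were not matched further within the class. At places from 5% to 10% the direction was the opposite, with a median of 710 bp inside and 773 bp outside, narrower in 9 of 9 libraries (exact sign-flip test, adjusted p = 0.0117). In the other 6 classes the adjusted p of the exact sign-flip test ran from 0.105 to 0.469. All libraries share the same loci, so the 9 differences are repeated measures that describe these loci, and the p-values do not extend to others. Because the windows were proposed with scores in view and width goes with score, the classes are not free of that choice. The 9 tests of the adjustment included the overall comparison that is given without a test. Between groups, the median width inside the windows averaged 460 bp ± 10.4 for VCaP_DMSO, 454 bp ± 24.8 for VCaP_ENZ and 465 bp ± 38.1 for VCaP16 (SD, n = 3), with no difference beyond the spread (exact permutation test over 280 splits, p = 0.911).

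Some regions joined several peaks of a library into 1 stretch. The region chr1:142535680-142539386, 3707 bp long, held 1, 3 and 2 separate peaks in the VCaP_DMSO libraries, 2 in each VCaP_ENZ library and 2, 3 and 4 in the VCaP16 libraries. On chromosome 16, chr16:33898731-33902289 (3559 bp) held 2 or 3 peaks in every library, and chr16:33865038-33867416 (2379 bp) held 1 to 3. All 3 were called in all 9 libraries at moderate scores of 10.0 to 36.2.

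Over all places, the share of regions called in every library was near that elsewhere. For a library to call a region, 1 of its peaks had to touch it. All 9 libraries called 411 pericentromeric regions (35.2%), against 34.9% of the regions outside. A single library called 297 of them (25.4%), against 22.6% outside. The windows differed among themselves. On chromosome 21, 18.4% of 103 regions were called in all 9 libraries and 44.7% in 1, whereas on chromosome 2 the shares were 50.3% and 13.1% of 145.

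Missed calls occurred among well-placed regions as well. The median place of a region was taken over the libraries that called it, so lists without a call do not count in it. At a median place between 10% and 25%, 108 of 120 pericentromeric regions were called in all 9 libraries (90.0%, 95% Clopper-Pearson interval 83.2% to 94.7%, which covers counting error only), compared with 98.7% of 8201 regions outside. Over the best 25% of places, 13 of 242 pericentromeric regions (5.37%) were missed by at least 1 library, and 0.857% of 13529 others. These are descriptions with no test, since the windows were proposed with the calls known. The 12 missed regions at places from 10% to 25% and the 1 above them had a median width of 342 bp for the 13 together. The 108 stable regions of places 10% to 25% had a median of 934 bp. These are widths of merged regions, which span the peaks of all libraries that called them. A region called in fewer libraries joins fewer peaks and so tends to be narrower by construction. Of the 13, 1 was called in a single library. VCaP_DMSO libraries did not call 2, 3 and 3 of the 13, VCaP_ENZ libraries 3, 5 and 4, and VCaP16 libraries 8, 7 and 8. Missed regions outside the windows were not split by library, so whether this order is particular to the windows is unknown.

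The best-placed unstable region was chr2:92284124-92284538. It scored 41.3 and 51.6 in VCaP_DMSO replicates 2 and 3 and 40.5 in VCaP_ENZ replicate 1, and no other library called it. Around it, chr2:92275486-92276001 scored 42.9, 52.1 and 39.0 in VCaP_DMSO and 37.0, 37.2 and 40.5 in VCaP_ENZ, but in VCaP16 it was called in replicate 2 alone, at 32.6. On the same stretch, chr2:92307800-92308099 was missing from VCaP_ENZ replicate 3 and from VCaP16 replicates 1 and 2. On chromosome 1, chr1:121351993-121352591 scored 32.2 to 49.4 in the 6 VCaP libraries and 30.0 in VCaP16 replicate 3, and was not called in the other VCaP16 libraries. Each of these 4 regions was thus called at scores of 20 or more wherever it was called, and each was missing from at least 2 of the 3 VCaP16 libraries.

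Others lacked a call in 1 library only or without order among the groups. The narrowest but one of the named regions, chr22:18718009-18718194, spanned 186 bp and scored 22.1 to 55.4 in 8 libraries, VCaP16 replicate 3 being the exception. VCaP16 replicate 1 alone missed chr7:61085156-61085596, which scored 23.2 to 34.7 elsewhere. VCaP_DMSO replicate 3 alone missed chr21:9695893-9696215, at 10.2 to 37.6 elsewhere. The region chr7:63781434-63781605 was called in 1 VCaP_DMSO, 2 VCaP_ENZ and 1 VCaP16 library at 16.5 to 27.0.

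Among regions called in all 9 libraries, the place could still vary widely. The score of chr7:65372313-65373060 was 3.29 in VCaP_DMSO replicate 1 and 8.76 to 16.6 in the other libraries. For chr9:66971138-66971531 it was 2.89 in VCaP16 replicate 1, with 10.4 and 11.4 in the other VCaP16 libraries and 11.7 to 20.9 in VCaP. In both, 1 library made the spread. For chr10:42386954-42387979 VCaP16 was also apart from VCaP: 34.0, 43.4 and 36.8 in VCaP_DMSO, 42.1, 36.6 and 33.6 in VCaP_ENZ, and 17.8, 7.25 and 21.7 in VCaP16. The scores of chr16:46963448-46964342 were 4.79, 14.9 and 6.05 in VCaP_DMSO, 2.90, 9.47 and 4.62 in VCaP_ENZ and 9.52, 10.7 and 20.8 in VCaP16. There all VCaP16 scores were above all VCaP_ENZ scores, narrowly at the nearest pair, and VCaP_DMSO overlapped both groups.

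The share of peaks that lay in the windows was lower in the drug groups, and lowest in VCaP16. VCaP_DMSO libraries had 751, 703 and 710 peaks in the windows, VCaP_ENZ libraries 672, 741 and 669, and VCaP16 libraries 673, 650 and 744. As shares of their lists these were 1.30%, 1.28% and 1.32%, then 1.24%, 1.20% and 1.25%, then 1.16%, 1.13% and 1.08%. No group overlapped another. The means were 1.30% ± 0.0179, 1.23% ± 0.0262 and 1.13% ± 0.0422 (SD, n = 3). The exact permutation test of the 3 groups gave p = 0.00357, the smallest that 280 splits allow, and adjusted p = 0.0893 over the 25 tests made on such per-library values, so it did not pass the adjustment. VCaP16 against the 6 VCaP libraries gave a difference of -0.141 percentage points (exact permutation test over 84 splits, p = 0.0119, adjusted p = 0.149). The windows were proposed with the calls of these libraries in view, so these p-values and those given below for calls inside the windows are not independent evidence of a difference between groups. For each pair of groups the p was 0.1, the smallest that 3 against 3 can give.

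List length moved with these shares in part, since the longest lists of VCaP_ENZ and of VCaP16 had the lowest share of their group. Where list lengths were close, VCaP_DMSO replicate 1 with 57677 peaks had 1.30% in the windows, and VCaP16 replicates 1 and 2 with 57894 and 57315 peaks had 1.16% and 1.13%. With every list cut to its best 53646 peaks, the groups again did not overlap, at 1.29% ± 0.0254, 1.24% ± 0.0134 and 1.13% ± 0.0289 (SD, n = 3). The exact permutation test of the 3 groups gave p = 0.00357 (adjusted p = 0.0446 over 25 tests). The p before adjustment was the same as in the deposited lists. The adjustment counted this share and the share of regions called, given next, as separate tests. In lists of equal length they are nearly the same count, so the lower adjusted p adds no evidence. Here too the windows were chosen with calls in view.

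In these equal lists, which merged into 1035 pericentromeric regions, VCaP_DMSO libraries called 64.5%, 64.6% and 66.1% of them, VCaP_ENZ libraries 61.7%, 61.7% and 61.1%, and VCaP16 libraries 57.3%, 57.2% and 56.1%. The groups again did not overlap, and the exact permutation test of the 3 groups gave p = 0.00357 (adjusted p = 0.0446 over 25 tests), a value that the choice of windows with calls in view also limits. This result nearly repeats that for the share of peaks in equal lists. VCaP16 minus the 6 VCaP libraries was -6.43 points (exact permutation test, p = 0.0119), which did not pass the adjustment (0.0744). Of the regions outside the windows the equal lists called 62.7% ± 0.399, 62.5% ± 0.487 and 63.0% ± 0.332 (SD, n = 3). In the lists as deposited the share of pericentromeric regions called was 60.0% ± 2.37, 56.9% ± 3.996 and 57.0% ± 4.61 and did not differ beyond the spread (exact permutation test, p = 0.55), while the share called outside was 57.2% ± 2.16, 58.1% ± 4.98 and 63.5% ± 7.02. The difference within a library, inside minus outside, averaged 2.81 points ± 0.885 for VCaP_DMSO, -1.12 ± 1.09 for VCaP_ENZ and -6.51 ± 2.47 for VCaP16 (SD, n = 3). On that difference VCaP16 minus the 6 VCaP libraries was -7.35 points, a description added after the data were seen and given without a test.

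**Figure D2:**
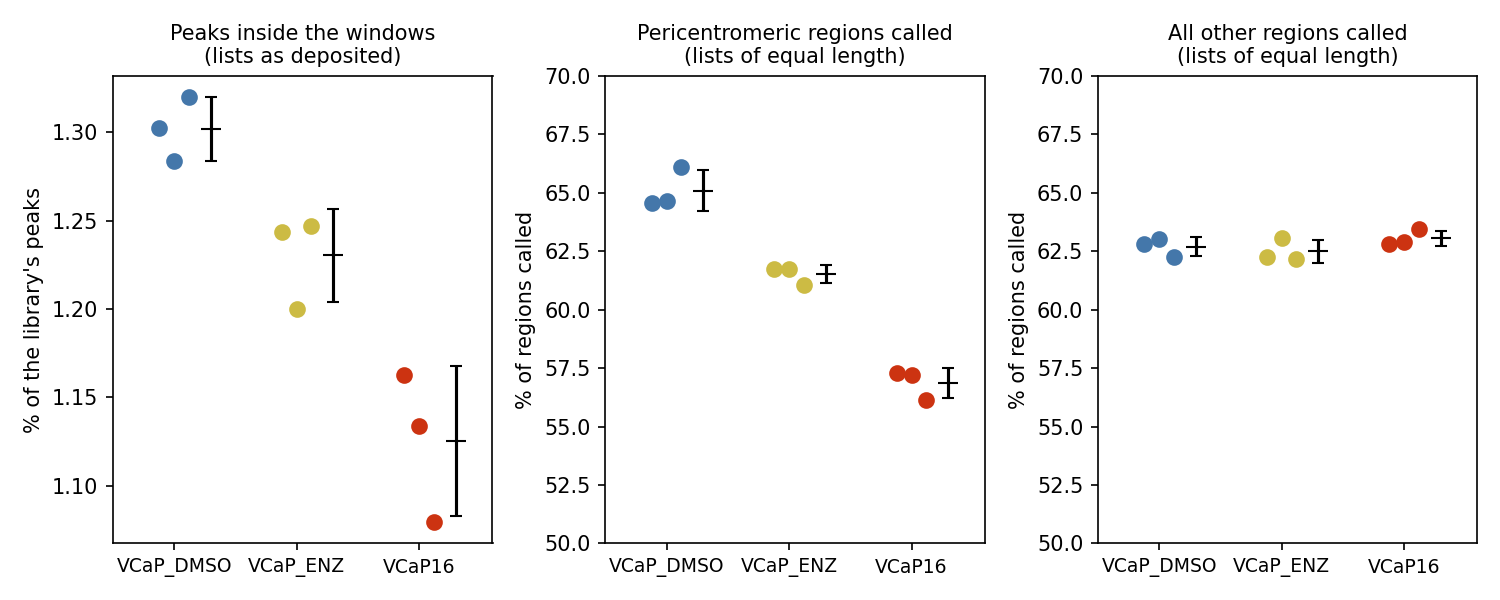
Each point is 1 library, with the mean and SD of its group (n = 3) in black. The y axes, which do not start at 0, give the percentage of a library's peaks inside the pericentromeric windows in the deposited lists (left), and the percentage of pericentromeric regions (middle) and of all other regions (right) called when every list is cut to its best 53646 peaks. The 3 groups do not overlap in the left and middle panels, and lie between 62.2% and 63.4% in the right panel.

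The neighbouring DNA did not show the same order. On the same 10 chromosomes outside the windows lay 45.2% ± 0.107, 45.0% ± 0.108 and 45.1% ± 0.0816 of the peaks of VCaP_DMSO, VCaP_ENZ and VCaP16 (SD, n = 3), and VCaP16 did not differ from VCaP beyond the spread (exact permutation test, p = 0.714). In the 5 Mb flanking each window the shares were 3.66% ± 0.0243, 3.58% ± 0.00950 and 3.61% ± 0.0212. VCaP_ENZ was lowest there, and the exact permutation test of the 3 groups gave p = 0.0143 before adjustment. Its adjusted p of 0.0229 was taken over 8 tests added after the data were seen. These included the comparisons of calls inside the windows that are given here without a test, so it is not a firm result. VCaP16 and the 6 VCaP libraries did not differ beyond the spread in the flanks (exact permutation test, p = 0.679). Peaks inside the windows amounted to 35.6% ± 0.707, 34.3% ± 0.818 and 31.2% ± 1.21 of those in the flanks (SD, n = 3). For that ratio VCaP16 minus VCaP was -3.77 points, again without a test.

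In the deposited lists, the mean VCaP16 share was below the VCaP mean in 13 of 13 windows, although the size of the difference varied widely. All 3 VCaP16 libraries were below all 6 VCaP libraries in 6 windows, and in none were they all above. The same counts were not made for windows elsewhere in the genome, so how usual they are is unknown. The means stepped down from VCaP_DMSO over VCaP_ENZ to VCaP16 in 10 windows. Relative to VCaP, the VCaP16 share differed by -22.6% in the chromosome 10 window, by -22.1% on chromosome 21 and by -18.0% on chromosome 4. The smallest differences were -0.197% on chromosome 9, the longest window with 32.5 Mb and the sparsest with 4.25 regions per Mb, -1.15% on chromosome 19 at 22.5 to 24.7 Mb, and -3.73% on chromosome 22, the densest with 37.7 regions per Mb. No test was made per window.

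Windows contain stretches without any peak, and the distance to them was examined next, after the data were seen. A stretch of at least 1 Mb in which no library had a peak was called empty; there were 66 in the genome, of which 18 touched the windows. The values that follow describe calls inside windows proposed with calls in view and carry no test. In equal lists, 197 pericentromeric regions lay within 100 kb of an empty stretch, and VCaP_DMSO, VCaP_ENZ and VCaP16 called 63.6% ± 3.38, 53.3% ± 1.76 and 42.6% ± 1.76 of them (SD, n = 3), with no overlap between VCaP16 and the VCaP libraries. VCaP16 minus the 6 VCaP libraries was -15.8 points there. In the lists as deposited, 196 regions lay as close and the shares were 62.2% ± 2.34, 52.0% ± 3.85 and 45.4% ± 2.70 (SD, n = 3), a difference of -11.7 points, and the highest VCaP16 library and the lowest VCaP_ENZ library were both at 48.5%. Within 100 kb the VCaP16 mean was the lowest of the 3 in both kinds of list.

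Farther away the result depended on the lists. At 100 to 500 kb, VCaP16 minus VCaP was -5.67 points in equal lists and -3.32 as deposited. At 500 to 1000 kb it was -6.05 points in equal lists, where the groups called 65.4%, 61.5% and 57.4%, and 0 as deposited. At 1000 to 2000 kb it was 0.239 points in equal lists and 5.49 as deposited, and beyond 2000 kb it was -5.06 in equal lists and 1.52 as deposited, so the sign changed with the lists in the last of these classes. The deposited VCaP16 lists are longer on average, and regions outside the windows were called more often in them too, by 5.90 points at over 2000 kb, against 0.455 in equal lists.

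Outside the windows, 286 regions of the equal lists lay within 100 kb of an empty stretch. They were called at 54.0% ± 2.83, 49.0% ± 0.606 and 47.9% ± 1.26 (SD, n = 3), and VCaP16 minus VCaP was -3.55 points (exact permutation test, p = 0.107, adjusted p = 0.153 over 10 tests). For the 3 groups the exact permutation test gave p = 0.0107 (adjusted p = 0.0214). The 10 tests behind each adjusted p included those of regions inside the windows, which are given here without a test. The adjusted p-values of this paragraph depend on those tests, so none of them is a firm result. As deposited, 294 such regions gave 0.397 points. Farther away the sign outside the windows was mostly the opposite in equal lists. At 100 to 500 kb, VCaP16 minus VCaP was 2.62 points over 483 regions (exact permutation test, p = 0.0119, adjusted p = 0.0238 over the same 10 tests). At 500 to 1000 kb it was 2.27 points, at 1000 to 2000 kb -0.235 and beyond 2000 kb 0.455. Whether the difference within 100 kb is larger inside the windows than outside was not tested. Of the 28 pericentromeric regions in the best 1%, 9 lay within 100 kb of an empty stretch.

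**Figure D3:**
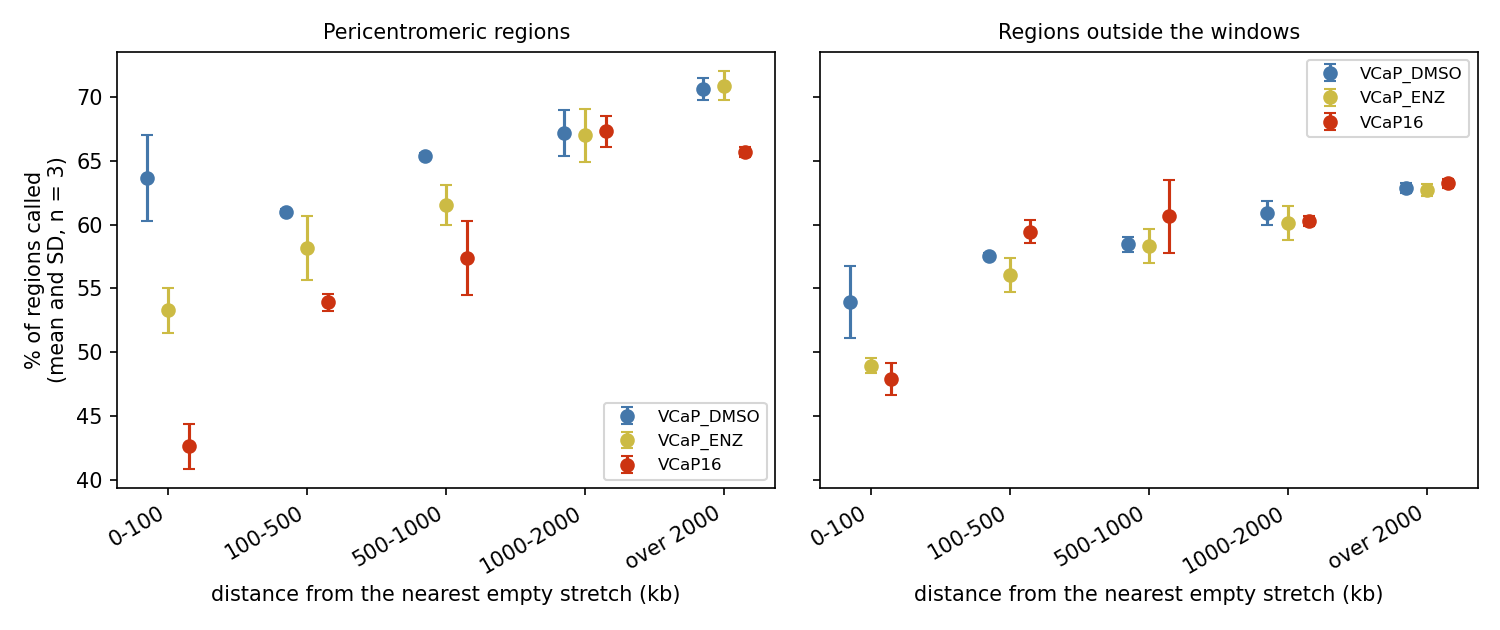
Mean percentage of regions called per library, with the SD over 3 libraries (y axis, not starting at 0), by the distance of the region from the nearest stretch of at least 1 Mb without a peak (x axis, kb), in lists of equal length. Left, pericentromeric regions; right, regions outside the windows. Within 100 kb the pericentromeric means are 63.6%, 53.3% and 42.6%, and outside they are 54.0%, 49.0% and 47.9%.

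Pericentromeric regions no more than 25 kb apart formed 72 runs of at least 5, which held 711 regions. In the deposited lists VCaP16 libraries called fewer regions on average than VCaP libraries in 41 runs (56.9%) and more in 26 (36.1%). Of 5399 runs built in the same way outside the windows, they called fewer in 26.3% and more in 66.2%. In 1 run, chr10:39079439-39152810 with 25 regions beside an empty stretch, all VCaP16 libraries called fewer regions than all VCaP libraries, as in 0.11% of all runs: 15, 13 and 12 in VCaP_DMSO, 11, 12 and 10 in VCaP_ENZ and 9, 9 and 9 in VCaP16. In 0 pericentromeric runs did they all call more, against 1.5% of all runs. Runs named next were chosen after their values were seen. Mean calls in VCaP_DMSO, VCaP_ENZ and VCaP16 were 17, 13.7 and 12.3 of 20 regions in chr10:42355262-42407969, and 13.3, 11.7 and 8.33 of 26 in chr21:10765206-10856876. In the opposite direction, they were 6, 7.67 and 8.33 of 10 regions in chr7:55583272-55665853, and 3.67, 3.67 and 5.33 of 9 in chr1:120535215-120619470.

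Regions called in every library were compared by their place. In equal lists 398 pericentromeric regions were called in all 9, and 42 of them (10.6%) stood lower in every VCaP16 list than in every VCaP list, where the same held for 3.84% of all such regions. Standing higher in every VCaP16 list were 7 (1.76%), against 3.53% of all. Within 100 kb of an empty stretch, 16 of 51 stood lower (31.4%) and 1 stood higher. Of the regions outside the windows that lay as close to an empty stretch, 9 of 72 stood lower (12.5%) and 0 stood higher. With 1 library left out, the first count was at most 72 and the second at most 18, both without VCaP16 replicate 2. Shares over all regions were not computed with a library left out. For VCaP_ENZ against VCaP_DMSO, 44 stood lower and 27 higher (11.1% and 6.78%, against 7.33% and 8.48% of all regions). For VCaP16 against VCaP_DMSO the numbers were 86 and 27 (21.6% and 6.78%, against 10.6% and 9.59%), and for VCaP16 against VCaP_ENZ 75 and 24 (18.8% and 6.03%, against 9.76% and 7.85%). These 3 comparisons share their libraries and are not independent of each other.

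Calls that separated whole groups were few. Of the 1169 regions, 774 belonged to the consensus, the 66108 regions that 2 or more libraries of some group called. Called in 3 of 3 VCaP_ENZ and 0 of 3 VCaP_DMSO libraries were 3 pericentromeric regions (0.388% of 774, against 0.936% of all consensus regions), and 10 showed the reverse (1.29% against 0.799%). Between VCaP16 and VCaP_DMSO, 6 were called in VCaP16 and not VCaP_DMSO (0.775% against 2.33%) and 13 in VCaP_DMSO and not VCaP16 (1.68% against 0.762%). Between VCaP16 and VCaP_ENZ the counts were 8 (1.03% against 1.62%) and 10 (1.29% against 0.588%). Called in all 3 VCaP16 and none of the 6 VCaP libraries were 2 (0.258% against 0.787%), and in all 6 VCaP and no VCaP16 library 3 (0.388% against 0.126%). In each pairing the share of regions missing from the group with the higher drug dose was above the share over all consensus regions, and the share called only in that group was below it. Fewer libraries gave more such regions: the highest counts with 1 library left out were, in the order above, 12 without VCaP_ENZ replicate 3, 26 without VCaP_DMSO replicate 2, 18, 29 and 21 without VCaP16 replicate 3, 19 without VCaP_ENZ replicate 3, and 13 and 9 without VCaP16 replicate 3. Shares over all consensus regions were not computed with a library left out, so these counts cannot be set against the rest. Single regions were not tested, because an exact test of 3 against 3 libraries cannot go below p = 0.1.

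These counts depended on small overlaps. If a call needed a peak over at least 50% of the region, 8 of the 13 regions of VCaP_DMSO without VCaP16 kept their pattern, as did 5 of the 10 of VCaP_ENZ without VCaP16, 1 of the 3 of all VCaP without VCaP16 and 0 of the 2 of VCaP16 alone. Other regions came to show the pattern of VCaP16 alone under that rule, and shares over all consensus regions were not computed for it. In equal lists the regions called in VCaP_DMSO and not VCaP16 numbered 28 of 725 (3.86%, against 1.43% of all consensus regions of these lists), including 12 of the 13.

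The best-placed region present in all VCaP and no VCaP16 library was chr7:56441047-56441389, next to an empty stretch. It scored 42.4, 39.9 and 28.4 in VCaP_DMSO and 24.9, 22.9 and 14.0 in VCaP_ENZ, so that the VCaP_DMSO values were all above the VCaP_ENZ values. The second, chr21:9825486-9826316, scored 12.3, 24.5 and 17.1, then 6.30, 19.7 and 23.1, with no order between the VCaP groups. It lay directly beside chr21:9826865-9827552, the region at places 17 to 80, which all libraries called. The third, chr9:68424109-68424880, had scores of only 5.14 to 9.85.

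Regions of VCaP_DMSO that VCaP16 lacked were partly seen in VCaP_ENZ. The score of chr22:18879972-18880465 was 46.4, 47.1 and 46.5 in VCaP_DMSO and 40.8 and 25.8 in VCaP_ENZ replicates 2 and 3, with no call in VCaP_ENZ replicate 1. Its neighbour chr22:18883684-18884108 was called in all 9 libraries. In chr10:42394149-42394923 the scores were 17.7, 19.0 and 9.27 in VCaP_DMSO and 12.8 and 16.1 in VCaP_ENZ replicates 1 and 2, and in chr4:49516540-49517115 they were 27.9, 25.3 and 10.8, then 12.8 and 14.8 in the same libraries. From VCaP_ENZ to VCaP16 the missing regions included chr16:33953156-33953424, at 10.2 to 14.0 in 3 VCaP_ENZ libraries and VCaP_DMSO replicate 3, and chr9:68419189-68419750, at 6.01 to 7.09 in 5 VCaP libraries. Only VCaP_DMSO called chr16:46432574-46432787, at 10.0, 16.4 and 11.9. The other 4 named regions of VCaP_DMSO without VCaP_ENZ, chr10:42796961-42797651, chr19:27755977-27756799, chr21:10204378-10204785 and chr22:17779816-17780309, scored 4.96 to 16.4 in VCaP_DMSO, and at least 1 VCaP16 library called each.

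Regions present in VCaP16 alone had low scores. They were chr2:89173530-89174010, with 3.78, 6.17 and 8.97, and chr4:49116414-49116778, with 7.01, 2.65 and 6.05, close to the limit of 2 below which no peak was listed. Better placed was chr9:44419926-44420255, with 32.6, 16.3 and 28.5 in VCaP16, 26.2 in VCaP_DMSO replicate 1 and no call in the other 5 VCaP libraries. VCaP16 and VCaP_ENZ, but not VCaP_DMSO, called chr7:65771122-65771645, at 4.39 to 16.3. VCaP_ENZ alone called chr19:23663977-23664220, at 12.2, 18.5 and 17.7, and chr1:145573915-145574239, at 2.84 to 4.50. The other 6 named regions of VCaP16, chr4:48558102-48558794, chr7:64090749-64091295, chr10:38788046-38788807, chr2:95989031-95989582, chr1:120601855-120602191 and chr1:144918107-144918319, were each called in 2 libraries of 1 VCaP group as well.

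**Figure D4:**
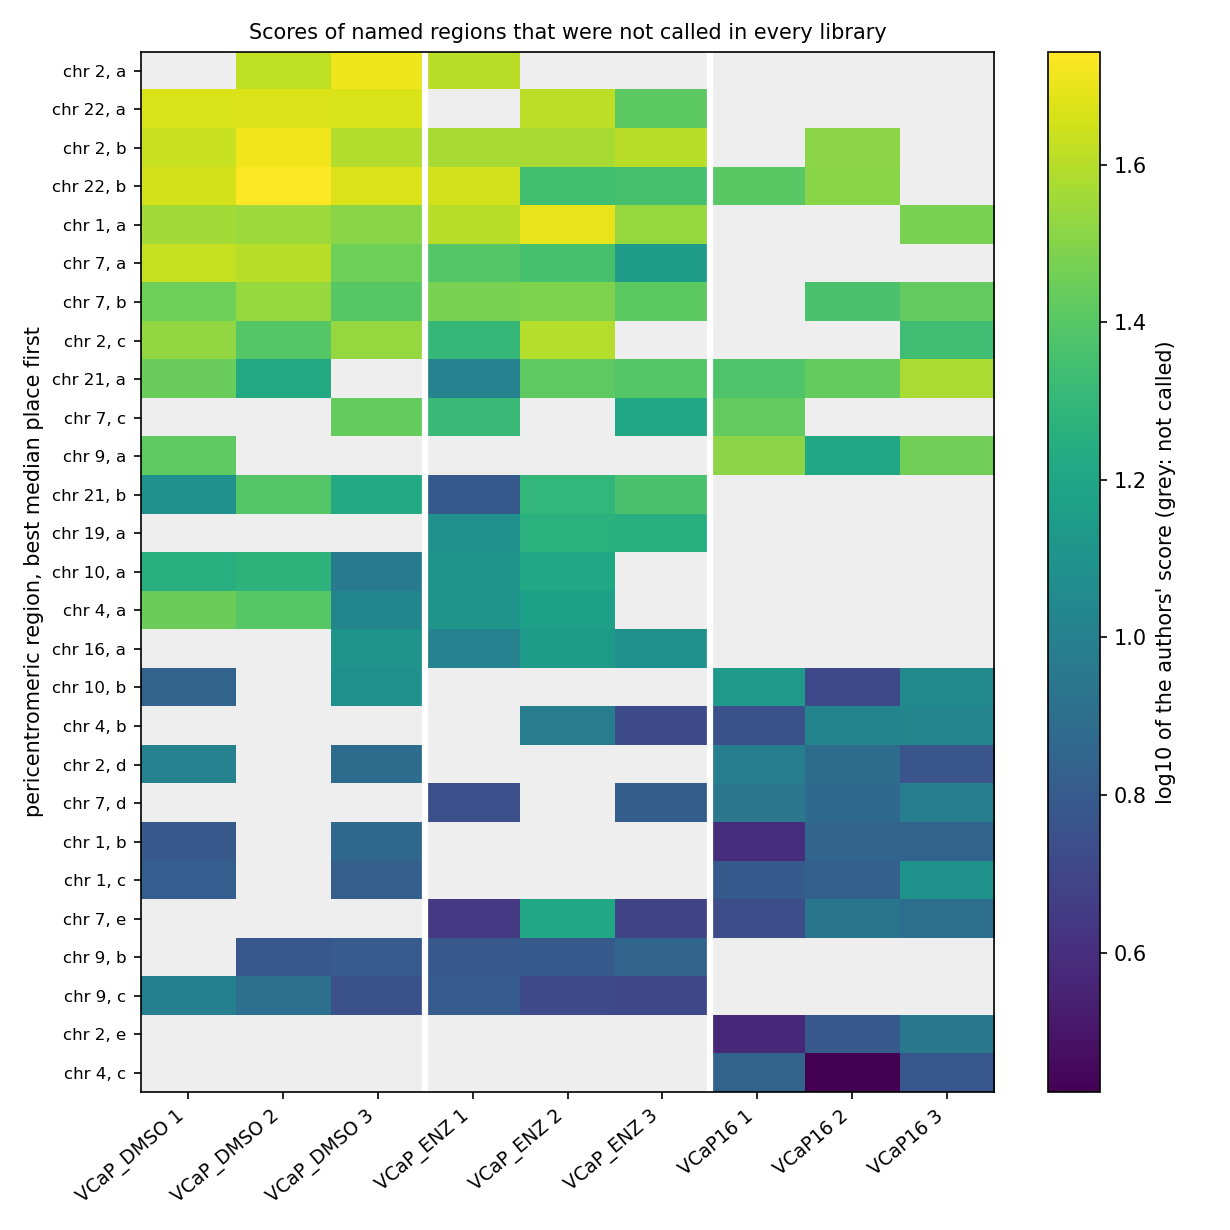
Scores of 27 pericentromeric regions (rows, named by chromosome and a letter, best median place first) in 9 libraries (columns), as log10 of the authors' score by colour, with grey where a library did not call the region. Shown are the 10 best-placed regions not called in all 9 libraries and up to 5 best-placed regions of each pattern between VCaP16 and VCaP; chr22:18879972-18880465 is the row chr 22, a, with scores of 46.4 to 47.1 in VCaP_DMSO and no VCaP16 call.

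The widest range of places among regions called in all 9 libraries was on chromosome 9, with the high places in VCaP16. The region chr9:68425969-68426941, 973 bp wide, scored 13.6, 4.65 and 6.50 in VCaP_DMSO, 10.9, 21.6 and 13.0 in VCaP_ENZ and 84.2, 93.9 and 122.3 in VCaP16. Its places were 30.6% to 86.1% from the top in the VCaP lists and 0.866% to 1.15% in the VCaP16 lists, with no overlap. Neighbours within 25 kb showed no such difference in the same direction. At 13.1 kb towards lower coordinates, chr9:68412848-68413831 scored 78.3 to 154.5 in all 9 libraries, and at 7.73 kb on the same side chr9:68418474-68418984 scored 7.28 to 17.3 in all 9. Between these and the first region lay chr9:68419189-68419750 and chr9:68424109-68424880, the 2 regions named above that no VCaP16 library called. The centre of the nearer one was 1.96 kb from that of the first region. The window's share of peaks, by contrast, was nearly equal in VCaP16 and VCaP.

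**Figure D5:**
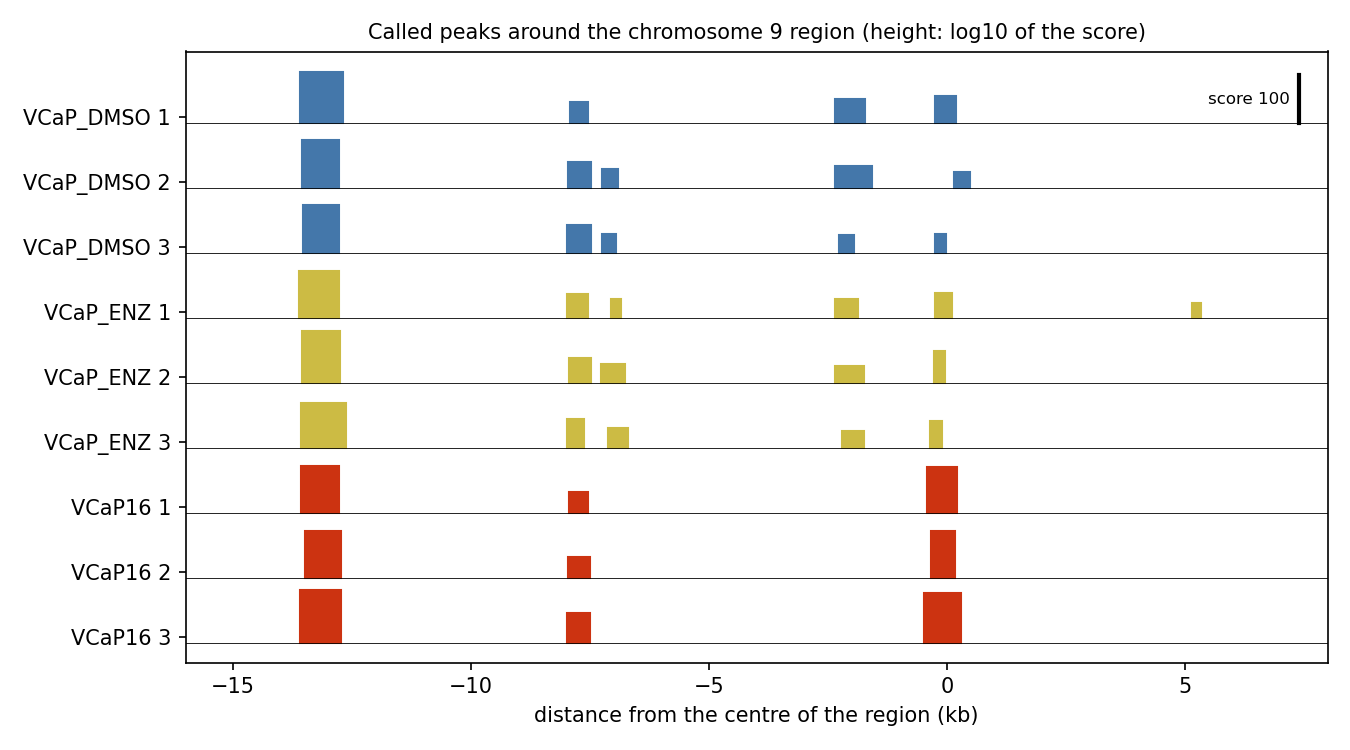
Peaks called in each of the 9 libraries (rows) by distance in kb from the centre of the chromosome 9 region whose place changed most (x axis). Each box spans the width of a peak and its height is log10 of the authors' score, with a bar for a score of 100. At distance 0 the VCaP16 peaks score 84.2 to 122.3 and the VCaP peaks 4.65 to 21.6, while the peaks near -13.1 kb score 78.3 to 154.5 in every library.

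A second region with a higher place in every VCaP16 list was chr7:65786308-65787142, named after its values were seen. It scored 7.74, 9.46 and 6.72 in VCaP_DMSO, 8.92, 9.60 and 12.7 in VCaP_ENZ and 29.2, 25.3 and 23.5 in VCaP16. Among the regions that stood lower in every VCaP16 list, also chosen after their values were seen, were chr10:42398358-42400726, at 166 to 187 in VCaP except 130 in VCaP_ENZ replicate 3, and at 111, 125 and 154 in VCaP16, and chr21:11186201-11187238, at 77.5 to 149.7 in VCaP and 64.8, 68.3 and 95.4 in VCaP16. Scores of the last region overlapped between the groups, while its places in the equal lists did not (0.356% to 1.79% against 2.57% to 2.87%).

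At the borders of the windows, the 26 regions nearest to a border on the inside lay a median of 34.9 kb from it, 9 were called in all 9 libraries and their median place was 67.7%. For 18 borders the nearest region on the outside belonged to no window. Those 18 lay a median of 12.8 kb from the border, 3 were called in all 9 libraries, and their median place was 70.2%.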

How the data were processed

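The authors deposited an ATAC-seq peak list for each of 9 libraries; none pools replicates. MACS2 2.2.7.1, BWA 0.7.15-r1140, HOMER 3.12 and the build hg19 are named by the submitters' processing notes. Their settings, read filters and any shift for Tn5 are not given in the sources used here. In the labels, the protocol describes formaldehyde-fixed bulk ATAC-seq and also a single-cell preparation, and the lists were treated as bulk. Since no deposited score was under 2, the authors' score was read as −log10 of each peak's p-value or, equally possible, its q-value. A score and a list's length both move with depth, which is unknown, so scores were only ranked within a list and lists cut to equal length were set beside the deposited ones.

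Peaks on chromosomes 1 to 22 and X were merged at 1 bp overlap and assigned to the windows by midpoint, with Python 3.11.15, numpy 2.4.6, pandas 2.3.3 and scipy 1.17.1. Coordinates count from 1. Tests were two-sided exact permutation tests over libraries (280 splits of 3 groups, 84 of 3 against 6, 20 of a pair) and a sign-flip test, with Benjamini-Hochberg adjustment, and the code was tested on simulated lists. The members, lists and tests were chosen with earlier results of these data known. Named regions were the 10 best-placed, the best of each window, up to 5 best-placed of each pattern between groups, the 10 best-placed not called in all libraries, the 5 with the widest range of place and the 3 with most peaks. Distances to empty stretches, flanks and places in equal lists were added after the data were seen. Replicate numbers did not pair the libraries: the correlation of deviations was -0.0280 to 0.00788 for equal numbers and -0.0270 to 0.0518 for different ones.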

Additional observations from a re-analysis of the deposited data

How the results depend on the processing

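Of 674 recomputed values, 568 changed neither sign nor call at 0.05 by the exact tests, or moved little; the cause of the others was not tested. The share of peaks in the windows kept its direction under all settings run; with single libraries left out, VCaP16 minus VCaP was -0.159 to -0.118. With a replicate block, a number-only pairing, its exact p was 0.0278 for 3 groups and 0.0370 for VCaP16 against VCaP, the smallest that such blocks allow. For the best 1% of peaks (sum of squares over 3 groups 0.416, VCaP16 minus VCaP -0.406) the blocked exact p was also 0.0278 and 0.0370, against 0.35 and 0.202 in the exact permutation tests without blocks. Replicate numbers did not pair the libraries, so the blocked values carry little weight. Regions called, VCaP16 minus VCaP_ENZ, changed sign with score 5 (-1.09), equal lists (-4.64) and without chromosome 9 (-0.711), and single libraries gave -2.72 to 2.36; against VCaP, equal lists gave -6.43 (sum of squares over 3 groups 101.7), single libraries -4.28 to 0.231. Best 1%: VCaP_ENZ minus VCaP_DMSO was -3.23 for the best 0.1%, -0.0762 for the best 5% and -0.0444 to 0.456 with libraries left out. For the best 0.1% the sum of squares over 3 groups was 22.5 (exact permutation test, p = 0.0214, adjusted p = 0.179). That class held only 5 to 9 peaks a library, inside windows proposed with scores in view. VCaP16 minus VCaP_DMSO was 0.0332 without chromosome 10, a setting added after seeing the data. Median place, VCaP16 minus VCaP, was -1.07 in equal lists; VCaP16 minus VCaP_DMSO ran from -1.44 to 0.725. Width differences without single libraries ran from -11.8 to 26.3 (VCaP16 minus VCaP), -18.3 to 6.50 (VCaP_ENZ minus VCaP_DMSO, 0.667 in equal lists), -15.0 to 23 and -8.50 to 29.5 bp (VCaP16 minus VCaP_DMSO and VCaP_ENZ).

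Pattern counts, in the order of the text, without single libraries were 3 to 12, 10 to 26, 6 to 18, 13 to 29, 8 to 21, 10 to 19, 2 to 13 and 3 to 9. With all but 1 library of the calling group they were 20, 40, 36, 41, 40, 32, 21 and 11. Shares over all consensus regions were not computed for either setting, so whether pericentromeric regions differ in them is unknown. Score 5 gave 1 and 6 (VCaP_ENZ, VCaP_DMSO), 1 (VCaP16 alone) and 5 (VCaP alone), and 50% cover gave 6 (VCaP_ENZ not VCaP16) and 4 (VCaP16 alone), both without shares. Equal lists gave 28, 5, 1 and 6 (VCaP_DMSO not VCaP16, VCaP16 not VCaP_ENZ, VCaP16 alone, VCaP alone). These were 3.86%, 0.690%, 0.138% and 0.828%, against 1.43%, 1.31%, 0.609% and 0.308% of all consensus regions. Calls in every library were 41.3%, 38.5% and 22.1% with score 5, equal lists and 50% cover, calls in 1 library 18.8% and 29.4% with score 5 and 50% cover, and at places 10% to 25% 60.8% with 50% cover. Near empty stretches, VCaP16 minus VCaP was -11.3 with 50% cover and -13.8 to -10.9 without single libraries. Places lower and higher in VCaP16 were 48 to 72 and 8 to 18 without single libraries. Higher were 11 in deposited lists and 3 with 50% cover. Shares over all regions were not computed for these counts. Without read counts, low scores near 2 limit what a missing call can show.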
